A study of Mus musculus with 24 samples.

Results

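The 10 genes of the mouse heart that lay in the most strongly H3K9me2-depleted chromatin of this series are described here: Midn, Gnb2, Cic, Kdm6b, Rhof, Ubtf, Nfe2l1, Hnrnpa0, Bahcc1 and H2-DMa. They were chosen by the measured values themselves, since each held one of the abundant regions with the lowest H3K9me2 over input in one biopsy or the other. Their chromatin comprises 60 of the 53386 listed regions, namely every region that overlaps one of the 10 genes or lies within 2 kb of it, out of 18431 genes with a listed region. The low H3K9me2 over input is therefore the selection and not a finding, and it is given as a description, with calls counted only beside their share over all regions. What follows is how deep the depletion was, how far it reached along each gene, what the genes shared besides it, and whether the biopsies differed.

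The hearts came from 6 C57BL6 mice aged 12 months, 3 female and 3 male, that had all undergone ischemic preconditioning, in which the left coronary artery was closed and reopened in 4 cycles of 5 min of ischemia and 5 min of reperfusion before a last 30 min of reperfusion. From each heart, 1 biopsy came from the area at risk (AAR), supplied by that artery, and 1 from the remote myocardium (RM). Each biopsy gave 1 library of chromatin pulled down with an antibody to H3K9me2 (ChIP-seq) and 1 of unprecipitated input chromatin, so there were 4 groups of 6. Sham-operated hearts were not analysed here, so every value belongs to a preconditioned heart. Each biopsy was whole tissue, and a change in the mark per cell cannot be told apart from a change in the mix of cells.

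H3K9me2 is dimethylation of lysine 9 on histone H3, a mark of silent chromatin that is laid down mainly by the enzymes G9a and GLP and that often forms broad domains. Promoters of active genes, above all those rich in CG dinucleotides (CpG islands), generally lack it, and so do the bodies of many housekeeping genes. A region is called depleted here when it holds a smaller share of the H3K9me2 reads than of the input reads, so the log2 ratio of H3K9me2 over input is below 0. Libraries were scaled to their reads in the listed regions, so 0 stands for a typical listed region and not for absence of the mark.

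Promoter sequences are shown for deeply depleted start sites of Hnrnpa0, Nfe2l1 and Cic and, for contrast, for a shallower one of Cic and one of H2-DMa that was near input. They are from RefSeq on build GRCm38.p6, the assembly of the files' mm10 coordinates, and each stretch lies before a start site, that of the first Cic promoter being cut 41 bases short at the annotated start of the gene. CG dinucleotides, which read the same on both strands, are in capitals.

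Hnrnpa0, chr13:58128557-58128806, minus strand, before the gene's only start site in the table, which lay in a region at a log2 ratio of -1.72 in the AAR and -1.99 in the RM.
Hnrnpa0 upstream: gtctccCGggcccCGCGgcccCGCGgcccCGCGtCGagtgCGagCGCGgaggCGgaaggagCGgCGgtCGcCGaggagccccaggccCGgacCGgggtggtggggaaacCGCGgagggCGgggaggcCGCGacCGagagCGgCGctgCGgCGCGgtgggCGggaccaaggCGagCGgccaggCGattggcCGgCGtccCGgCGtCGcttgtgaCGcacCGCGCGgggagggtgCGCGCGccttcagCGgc

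Nfe2l1, chr11:96829969-96830218, minus strand, before the outermost of 5 start sites, which lay in a region at -1.63 and -2.08.
Nfe2l1 upstream: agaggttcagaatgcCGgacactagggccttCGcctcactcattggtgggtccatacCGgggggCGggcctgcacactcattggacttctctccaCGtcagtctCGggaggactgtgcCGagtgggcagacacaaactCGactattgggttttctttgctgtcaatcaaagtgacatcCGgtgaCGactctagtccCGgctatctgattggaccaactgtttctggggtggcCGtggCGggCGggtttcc

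Cic, chr7:25267449-25267657, plus strand, before the first start site, whose region was at -0.63 and -0.53.
Cic upstream: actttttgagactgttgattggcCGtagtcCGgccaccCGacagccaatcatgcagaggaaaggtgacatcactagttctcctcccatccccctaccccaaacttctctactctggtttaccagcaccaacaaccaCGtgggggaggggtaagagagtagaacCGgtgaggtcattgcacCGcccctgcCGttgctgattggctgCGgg

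Cic, chr7:25281929-25282178, plus strand, before the internal start site 14521 bases into the gene, whose region was at -1.88 and -1.76.
Cic internal: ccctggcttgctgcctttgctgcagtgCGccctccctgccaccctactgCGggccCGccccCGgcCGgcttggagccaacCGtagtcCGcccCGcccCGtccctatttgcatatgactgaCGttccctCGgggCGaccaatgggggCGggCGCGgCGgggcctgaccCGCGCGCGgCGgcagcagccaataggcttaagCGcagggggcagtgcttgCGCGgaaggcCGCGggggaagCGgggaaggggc

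H2-DMa, chr17:34125268-34125517, plus strand, before the second start site, 5825 bases into the gene, whose region was at -0.08 and -0.20.
H2-DMa internal: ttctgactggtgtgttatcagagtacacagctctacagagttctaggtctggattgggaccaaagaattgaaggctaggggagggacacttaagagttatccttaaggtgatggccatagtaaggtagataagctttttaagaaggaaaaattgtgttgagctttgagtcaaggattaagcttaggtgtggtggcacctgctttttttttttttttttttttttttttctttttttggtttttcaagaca

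The stretches held 46 CG dinucleotides in the 250 bases shown for Hnrnpa0, 14 in the 250 of Nfe2l1, 8 in the 209 of the first Cic promoter, 27 in the 250 of the internal Cic promoter and 0 in the 250 of H2-DMa. The depleted Nfe2l1 region ends at 96829999, so most of the Nfe2l1 stretch lies outside any listed region and was not measured. The other stretches lie inside their regions. In Cic and in H2-DMa the promoter with more CG dinucleotides was the more depleted of 2 in the same gene. In windows of 300 bases the counts at Cic were 17 for the first promoter and 34 for the internal one. The order did not always hold between genes: the Rhof window had 13, fewer than the first Cic promoter, in a deeper region at -1.82 and -1.63. The other H2-DMa start site, which overlaps the start of the neighbouring gene Brd2 on the other strand, had 29 CG dinucleotides in its 300-base promoter window and lay at -1.75 and -2.58. Over the 21 promoter windows of 300 bases available for 9 of the 10 genes (Kdm6b is not in the table), the median was 18 CG dinucleotides and 65.7% G or C. Medians over all 32851 promoters of the same length were 7 and 52.7%, and 94.6% of those hold at least 1 CG dinucleotide. Of the 21 windows, 19 lay above the median count of all promoters. The exceptions were the CG-free window of H2-DMa and the outermost of 6 at Ubtf, with 6.

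All tested regions at the 10 genes lay below 0 in both biopsies. Of the 60 regions, 11 held no read in any library because they lie inside another listed region, and 43 in the AAR and 41 in the RM had enough reads to be tested with edgeR. Their median log2 ratio was -0.93 in the AAR and -1.01 in the RM, against 0.01 and 0.01 over all tested regions. At a false discovery rate (FDR) of 0.05, 34 of 43 regions were called lower than input in the AAR, where 12.3% of all 40928 tested regions were, and 35 of 41 in the RM, where 20% of all 40767 were. None was called higher. Every H3K9me2 library lay below every input library in 28 of the 43 regions and 31 of the 41, against 5.71% and 8.59% of all tested regions. The genes were selected on this contrast, so nothing is read from these counts. Other tested regions within 50 kb of the 10 genes were milder, with a median of -0.28 over 101 regions and -0.38 over 99, and 24 and 25 of them lay above 0. Libraries held 416683 to 1196368 H3K9me2 reads and 1286383 to 2478668 input reads in the listed regions, so H3K9me2 values of depleted regions rest on fewer reads than input.

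The depletion spanned more than 1 listed region at 9 of the 10 genes, the exception being Hnrnpa0. From each gene's lowest region, the run of neighbouring tested regions at a log2 ratio of -0.5 or lower was followed outward on both sides. The median run was 26.8 kb in the AAR, from 3.0 kb at Hnrnpa0 to 67.2 kb at Midn, and 29.3 kb in the RM, from 3.0 kb to 90 kb at the same genes. Over all tested regions 14.2% and 18.1% were at -0.5 or lower. At a threshold of -1, which 2.64% and 3.88% of all regions reached, the median run shrank to 6.4 kb and 10.1 kb. The run was the same in both biopsies at 6 genes (Gnb2, Cic, Ubtf, Hnrnpa0, Bahcc1 and H2-DMa), and at Midn, Kdm6b and Nfe2l1 the run of the AAR lay wholly inside that of the RM. A run can only be seen where regions are listed, and the stretches between regions are not measured.

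**Figure D1:**
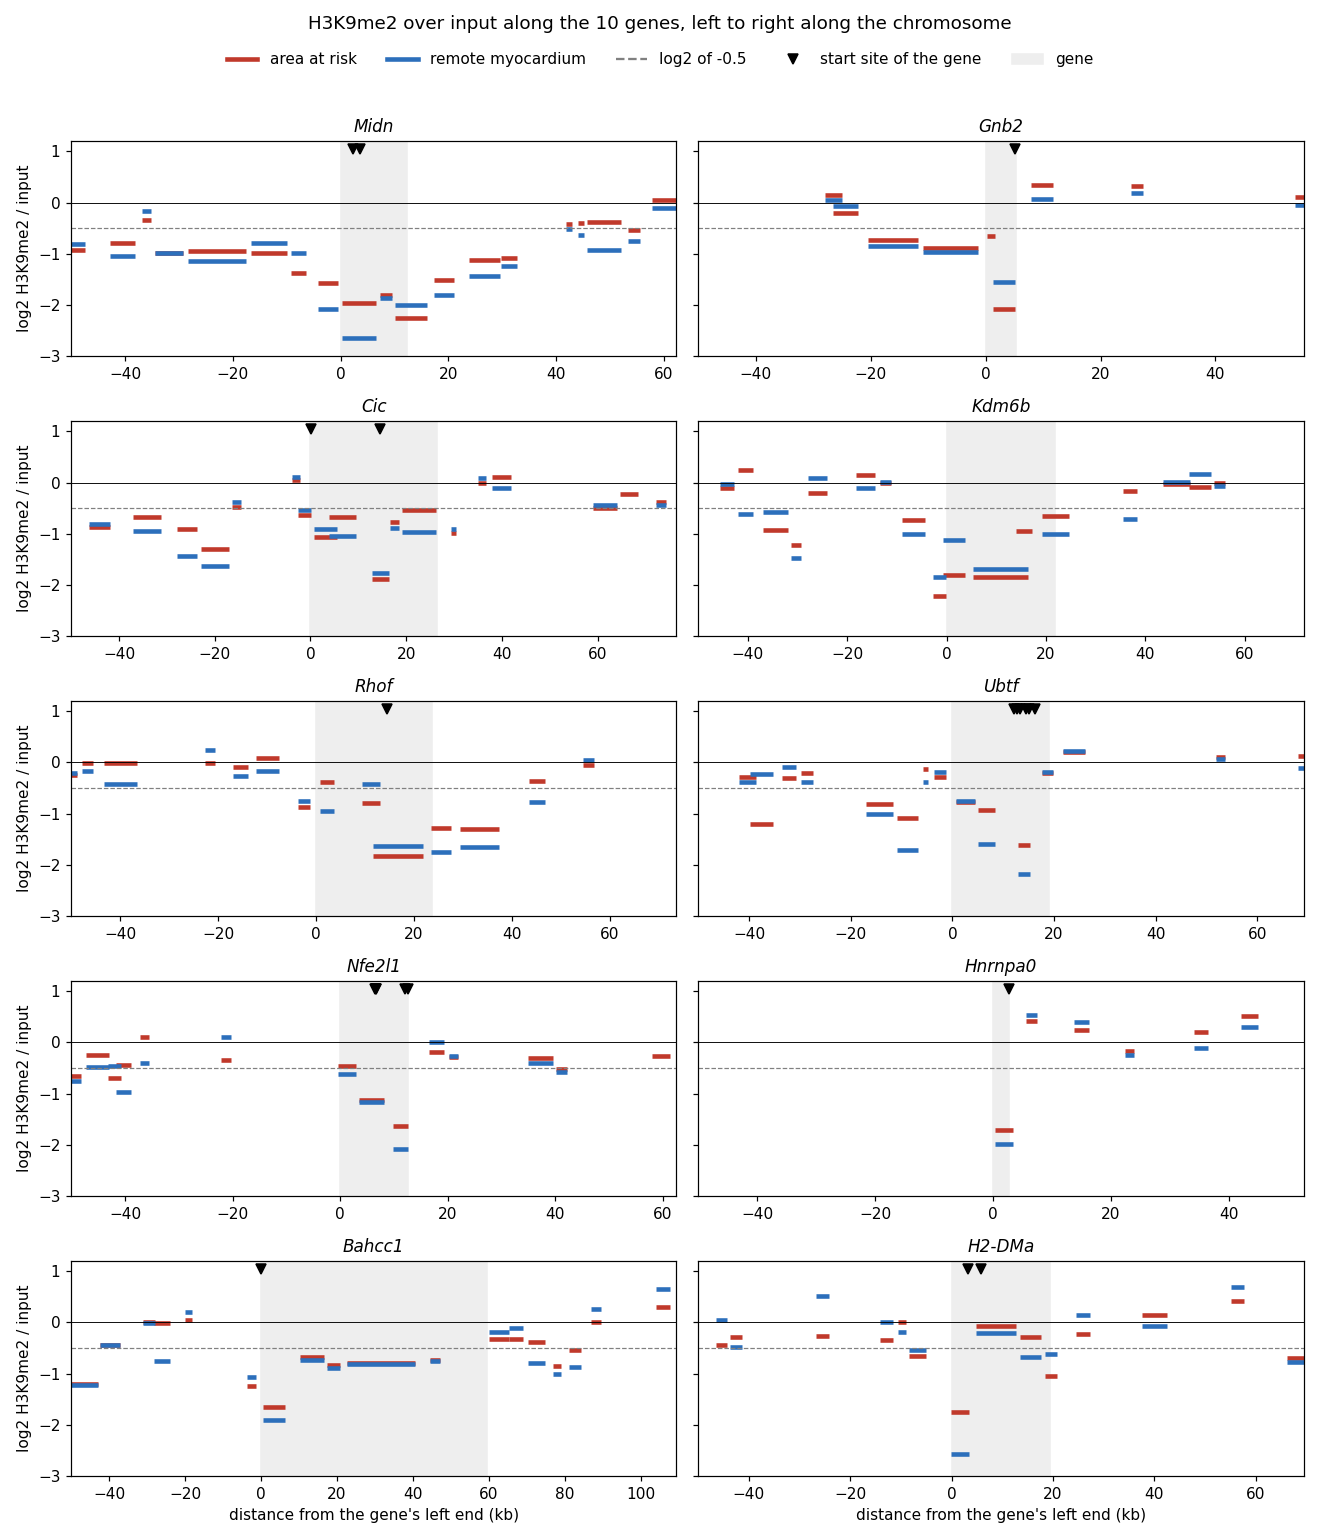
Log2 ratio of H3K9me2 over input of every tested region from 50 kb before to 50 kb after each gene, against distance in kb from the gene's left end on the chromosome. Each horizontal line is 1 region in the AAR (red) or RM (blue), the grey band is the gene, triangles are its RefSeq start sites and the dashed line is -0.5. Midn sits in a broad trough that extends well past both of its ends, while Hnrnpa0 shows a single deep region.

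**Figure D2:**
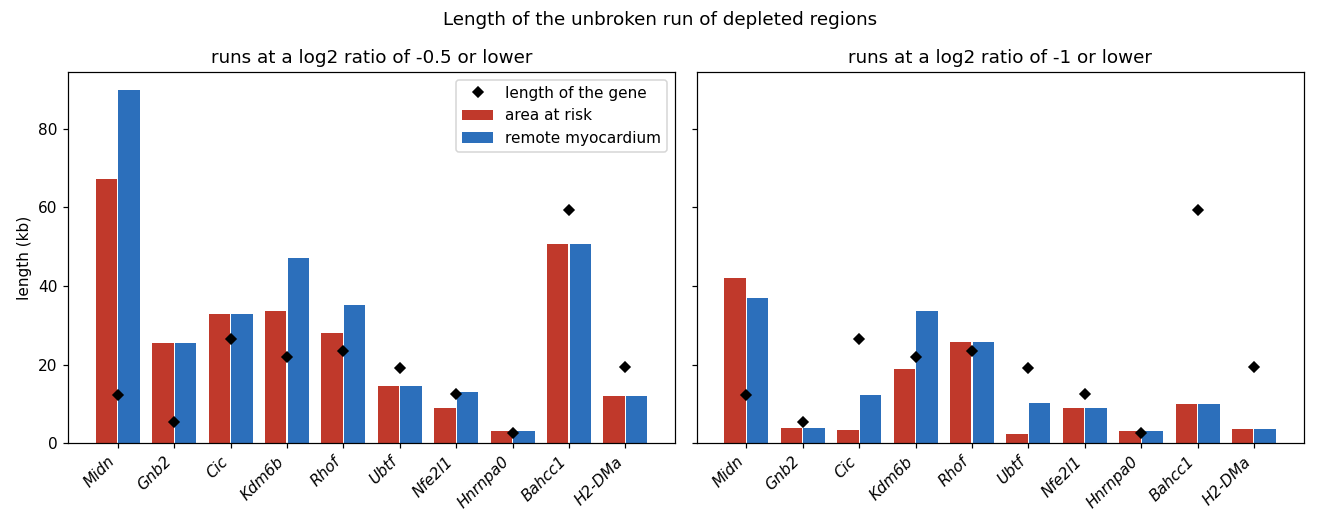
Length in kb of the unbroken run of depleted regions at each gene in the AAR (red) and RM (blue), at thresholds of -0.5 (left) and -1 (right), with the length of the gene as a diamond. Runs at -0.5 are longer than the gene at Midn, Gnb2, Cic, Kdm6b, Rhof and Hnrnpa0 in both biopsies. At -1 the median falls to 6.4 kb and 10.1 kb.

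Cic and Kdm6b encode regulators of transcription. Cic (chromosome 7, 25267658 to 25294159) encodes capicua, an HMG-box repressor whose repression is lifted by receptor tyrosine kinase signalling. Its lowest region, 25280600 to 25283999, covers the internal start site. H3K9me2 there ran from 0.0 to 11.1 CPM, which are counts scaled to library size, with a median of 9.72 in the AAR, and input from 27.7 to 41.3 with a median of 31.3. In the RM H3K9me2 ran from 5.91 to 14.1 CPM (median 9.20) and input from 26.6 to 45.3 (median 36.0). The groups did not overlap in either biopsy, and the library of mouse 22 from the AAR held no H3K9me2 read in this region. The log2 ratio was -1.88 (SE 0.23) and -1.76 (SE 0.21). Toward the first start site the ratios were -0.67, -1.07 and -0.63 in the AAR and -1.04, -0.90 and -0.53 in the RM, so the internal promoter was the deep point of the gene. All 6 tested regions of Cic were at -0.5 or lower and the run covered 33.0 kb in both biopsies, from 2.66 kb before the gene to 3.84 kb after it. It took in Pafah1b3, a subunit of platelet-activating factor acetylhydrolase, and ended on the left at a region at 0.05 and 0.10, and on the right at a region near Prr19 and Tmem145 at 0.00 and 0.09. The noncoding gene Gm45974 shares the regions at the left end of Cic. Without mouse 19 the run in the AAR was 21.2 kb and without mouse 27 it was 17.4 kb.

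Kdm6b (chromosome 11, 69398508 to 69420367) encodes JMJD3, a demethylase that removes methyl groups from lysine 27 of histone H3, another silencing mark. Its lowest region, 69395800 to 69398399, lies just outside the gene's left end, over Tmem88 and Naa38. H3K9me2 in it ran from 1.68 to 5.78 CPM in the AAR (median 2.68) against 13.6 to 22.4 in input (median 16.5). In the RM H3K9me2 ran from 2.48 to 13.5 CPM (median 4.58) against 13 to 24.4 (median 19.6), and the H3K9me2 library of mouse 22 lay above its own input. The ratio was -2.21 (SE 0.32) and -1.84 (SE 0.28). Inside the gene, a region of 11000 bases from 69403800 was at -1.85 and -1.68. A listed region that overlaps its right part, 69412400 to 69415799, was at -0.94 in the AAR and had too few reads in the RM. The right end of the gene, shared with Dnah2 (an axonemal dynein heavy chain) and the noncoding gene Gm51903, was shallower at -0.66 and -1.01. The run covered 33.6 kb in the AAR and 47.2 kb in the RM. On the left both runs crossed Tmem88, Naa38 and Cyb5d1 and ended at Gm32483, at 0.00 and 0.02. On the right the longer run took in 1 more region inside Dnah2, at -0.17 in the AAR and -0.71 in the RM, across 10.8 kb with no tested region. If a gap of over 5 kb ends a run, both were 33.6 kb.

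Bahcc1, the longest of the genes (chromosome 11, 120232870 to 120292297), encodes a chromatin protein with a bromo-adjacent homology (BAH) domain. H3K9me2 in its lowest region, 120233400 to 120239199, ran from 12.9 to 28.1 CPM in the AAR (median 16.5) and input from 52.2 to 64.3 (median 59.0). In the RM the values were 8.69 to 24.7 (median 17.6) and 50.5 to 70.3 (median 64.0). H3K9me2 and input did not overlap in either biopsy. The ratio was -1.65 (SE 0.16) and -1.91 (SE 0.16). This region begins 453 bases after the start site and also holds the noncoding gene Gm11772, and the region before it, at 2900052L18Rik, was at -1.25 and -1.07. From there on the body formed a plateau: 4 further regions between 120243200 and 120279999, among them 1 of 18000 bases, lay between -0.67 and -0.83 in the AAR and between -0.73 and -0.89 in the RM. The run of 50.8 kb ended in both biopsies 12.8 kb before the next tested region, just past the gene's right end, at -0.33 and -0.19. At the threshold of -1 the run was 10 kb in both biopsies.

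Ubtf (chromosome 11, 102304560 to 102323649) encodes UBF, which keeps the ribosomal RNA genes in an open state for RNA polymerase I. The lowest region, 102317400 to 102319799, covers 3 of its 6 start sites. H3K9me2 ran from 1.85 to 12.4 CPM in the AAR (median 9.85) against 21.6 to 37.2 in input (median 26.8), and from 2.91 to 13.5 in the RM (median 6.98) against 28.3 to 36.4 (median 30.7), with no overlap in either. The ratio was -1.61 (SE 0.24) and -2.18 (SE 0.23). The next tested regions downstream were at -0.93 and -1.60 and, at the end of the gene, at -0.78 and -0.75. The depletion stopped within the span of the gene on the upstream side, where the region over its right end was at -0.21 and -0.19, so the run of 14.6 kb was shorter than the gene in both biopsies.

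Nfe2l1 (chromosome 11, 96817414 to 96829968) encodes NRF1, a cap'n'collar (CNC) leucine zipper factor that drives proteasome genes. Ratios fell toward its outermost start sites, from -0.47 and -0.62 at the gene's left end through -1.12 and -1.17 at its 3 internal start sites to -1.63 (SE 0.24) and -2.08 (SE 0.23) at 96827200 to 96829999. In that lowest region H3K9me2 ran from 4.8 to 16.6 CPM in the AAR (median 7.67) and input from 18.4 to 34.5 (median 26.0). In the RM H3K9me2 ran from 2.26 to 11.1 CPM (median 6.80) and input from 25.0 to 33.6 (median 30.6). The groups did not overlap, although mouse 19 of the AAR came close to the lowest input. The run was 9.0 kb and 13 kb and went no further than the gene by more than 0.414 kb. Its ends were set by the left end of the gene itself in the AAR, which was just above -0.5, and by a region at Cbx1 and Gm11517 at 0.11 in the RM. Without mouse 23 the run in the AAR was 41.6 kb. A run of that length has to cross the 19.8 kb with no tested region between Nfe2l1 and the region at Cbx1.

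Hnrnpa0 (chromosome 13, 58125879 to 58128556) encodes an RNA-binding protein of the A/B type and had 1 listed region, 58126200 to 58129199, which covers the promoter printed above and 88.0% of the gene. H3K9me2 ran from 4.8 to 14.8 CPM in the AAR (median 8.54) and from 2.95 to 9.30 in the RM (median 8.88). Input ran from 25.4 to 34.5 (median 30.8) and from 23.0 to 37.5 (median 32.3), above all H3K9me2 libraries. The ratio was -1.72 (SE 0.22) and -1.99 (SE 0.23). The run was this region alone: 2.2 kb to the right, in the noncoding gene Gm40964, H3K9me2 was above input at 0.41 and 0.54, and to the left the next tested region, at Klhl3 and Gm33389, was 52.4 kb away at 0.18 and 0.22. Hnrnpa0 thus had the shortest run of the 10.

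Gnb2 and Rhof encode signalling proteins. Gnb2 (chromosome 5, 137528127 to 137533449) encodes a beta subunit of heterotrimeric G proteins. In its lowest region, 137529400 to 137533199, H3K9me2 ran from 0.0 to 10.7 CPM in the AAR (median 8.16) against 22.3 to 39.2 in input (median 33.4). In the RM it ran from 4.43 to 20.1 (median 10.6) against 26.6 to 37.9 (median 33.1). The groups did not overlap, and mouse 19 gave both the empty library of the AAR and the highest one of the RM. The ratio was -2.08 (SE 0.25) and -1.55 (SE 0.20). The run was 25.6 kb in both biopsies and lay almost wholly on 1 side: it began 107 bases inside the start site, and on the upstream side the next tested region was already at 0.35 and 0.07. Downstream it covered Gigyf1, a regulator of insulin-like growth factor signalling and translation, at -0.88 and -0.96 and then -0.74 and -0.84, and ended at Pop7 at -0.20 and -0.07. The short noncoding gene Mir6418 lies within the lowest region. Without mouse 30 the run in the AAR was 3.8 kb.

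Rhof (chromosome 5, 123118180 to 123141808) encodes a small GTPase that promotes filopodia. Its lowest region differed between the biopsies. In the AAR it was 123129800 to 123139999, at -1.82 (SE 0.16), over the only Rhof start site in the promoter set. That site, 123132629 on the minus strand, lies inside the gene and not at its right end. H3K9me2 in this region ran from 11.1 to 18.2 CPM (median 16.8) and input from 50.3 to 69.6 (median 58.0). In the RM the lowest region was 123141600 to 123145799, at -1.74 (SE 0.20). It covers the right end of Rhof, the upstream end of the annotated gene, and the left end of Setd1b. H3K9me2 there ran from 4.65 to 19.1 CPM (median 8.95) and input from 30.3 to 46.5 (median 35.5). Neither pair of groups overlapped. The first of these regions was at -1.63 in the RM and the second at -1.29 in the AAR. The run was 28 kb and 35.2 kb and reached 13.8 kb and 23.2 kb past the right end of Rhof into Setd1b, a methyltransferase for lysine 4 of histone H3. It ended inside Setd1b at -0.37 in the AAR and at Hpd at 0.04 in the RM. On the left it ended inside Rhof, at -0.38 and -0.43. The region at the gene's left end near Tmem120b, 123119000 to 123121799, was at -0.38 in the AAR and -0.95 in the RM.

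Midn (chromosome 10, 80146005 to 80158368) encodes midnolin, which takes nuclear proteins to the proteasome, and had the deepest and widest depletion of the 10 in both biopsies. Its lowest region in the AAR, 80156200 to 80161999, spans the end of the gene. H3K9me2 there ran from 3.69 to 19.8 CPM (median 7.90) and input from 45.8 to 64.3 (median 57.4), at a ratio of -2.25 (SE 0.19). In the RM the lowest was 80146200 to 80152599, over both start sites, where H3K9me2 ran from 3.72 to 16.1 CPM (median 8.80) and input from 56.1 to 76.9 (median 62.9), at -2.65 (SE 0.18). H3K9me2 held 18.0% and 15.1% of the input level in these regions, and the groups were far apart. All 4 regions of Midn were at -1.57 or lower in the AAR and at -1.87 or lower in the RM. The run extended 34.4 kb to the left of the gene, over Atp5d (a subunit of ATP synthase), Cbarp and Stk11 (the kinase LKB1), and ended at a short region at -0.34 and -0.17. Beyond that region depletion resumed at Sbno2, at -0.79 and -1.05 and then at -0.92 and -0.80, which the run does not count. To the right it passed Cirbp (a cold-inducible RNA-binding protein, -1.51 and -1.80) and Fam174c and ended at Efna2, an ephrin, at -0.42 in the AAR. The region between Fam174c and Efna2 was inside both runs, at -1.08 and -1.23, and in the RM the next 3 regions at Efna2 were too, at -0.51, -0.64 and -0.92. The RM run then took in a region at -0.76 and ended before a region at -0.10. The total was 67.2 kb over 6 protein-coding genes in the AAR and 90 kb over 7 in the RM. With a gap of over 5 kb ending the run, both were 67.2 kb, and at the threshold of -1 they were 42.0 kb and 37.0 kb.

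H2-DMa (chromosome 17, 34119693 to 34139101) encodes the alpha chain of the H2-M molecule, which loads peptides onto MHC class II. Its depletion was deepest at 1 end. The lowest region, 34119600 to 34123199, holds 1 H2-DMa start site and 3 of Brd2, a bromodomain protein that binds acetylated histones and is transcribed from the other strand. H3K9me2 ran from 3.97 to 14.9 CPM in the AAR (median 11.3) against 24 to 43.7 in input (median 35.2), and from 4.36 to 9.06 in the RM (median 8.16) against 38.4 to 50.8 (median 44.7), without overlap. The ratio was -1.75 (SE 0.22) and -2.58 (SE 0.21). Within the gene, the adjoining region of 8000 bases was near input at -0.08 and -0.20, followed by -0.28 and -0.67, and the far end was lower again at -1.04 and -0.62. The run of 12.0 kb therefore covered Brd2 and the left end of H2-DMa, and 23.7% and 45.4% of the gene was at -0.5 or lower, less than in any of the other 9. The run was 3.6 kb in the AAR without mouse 30, and in the RM without mouse 22 or without mouse 27.

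**Figure D3:**
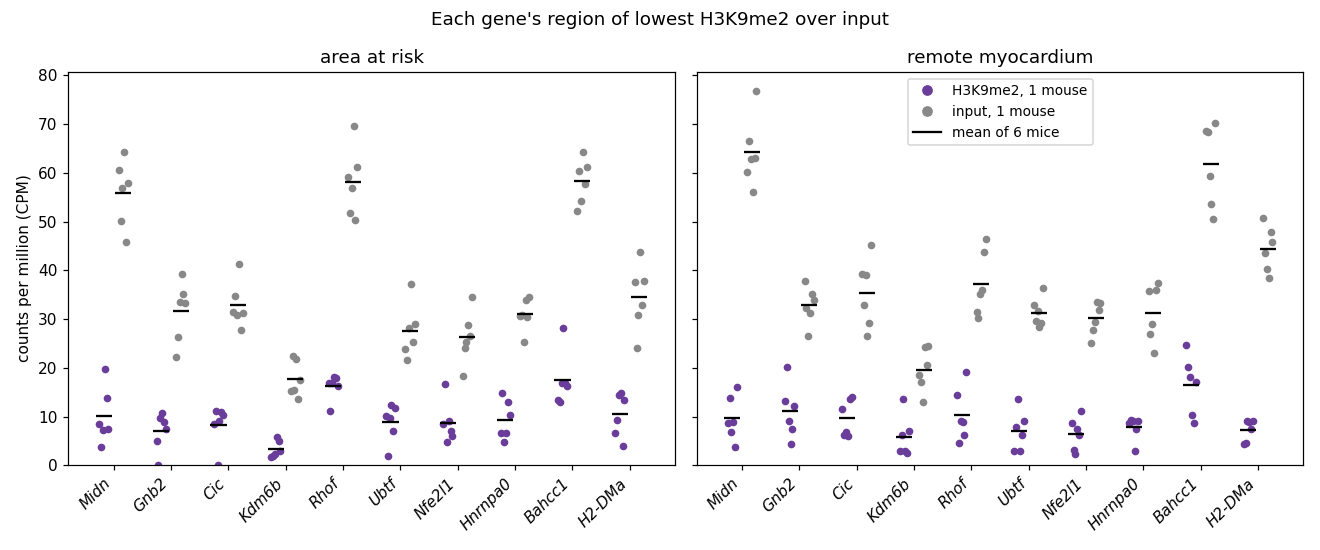
CPM of H3K9me2 (purple) and input (grey) in each of 6 mice, in each gene's lowest region of the AAR (left) and of the RM (right), with the mean as a line. The mean of H3K9me2 lies below that of input at every gene, and the values overlap at Kdm6b in the RM, where mouse 22 has 13.5 CPM of H3K9me2 and 13 of input. The H3K9me2 values rest on few reads, from 0 to 34 a library.

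Start sites recurred among the deep points. In both biopsies 7 of the 10 lowest regions covered a start site of some gene in the RefSeq promoter set, against 13.6% of all tested regions. That set has no entry for some genes, among them Kdm6b, Tmem88, Naa38 and Setd1b, so such counts can miss sites. Tmem88 lies wholly inside the lowest Kdm6b region, and the upstream end of Rhof lies in its lowest RM region. Neither region was counted as holding a start site. The lowest 100 abundant regions of the whole table held one in 70.0% in the AAR and 62.0% in the RM, so the 10 genes share this with other depleted regions. Over all regions, those with a start site had a median log2 ratio of -0.33 and -0.39, and those without 0.05 and 0.06. Among regions with a start site the median was 0.01 and 0.01 where no promoter had more than 7 CG dinucleotides, -0.28 and -0.30 up to 18, and -0.52 and -0.59 above 18. The member regions with a start site, whose median was -1.62 and -1.84, were lower than these classes, as their choice demands. Member regions had a median width of 3400 bases against 2600 over all regions with reads, and input reads were alike at 8.16 and 8.32 CPM per kb. The genes were picked through abundant regions, and at a like density wider regions hold more reads. The choice therefore bears on width too, and nothing is read from this difference. The genes were not of 1 size: their lengths ran from 2.68 kb (Hnrnpa0) to 59.4 kb (Bahcc1), and 6 were shorter than the 21.3 kb median of 12036 protein-coding genes with a region.

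Other genes lay as low. Over regions of median abundance or more, the 10 members interleaved with others: in the AAR Zfp36 stood at -2.05, Actg1 at -1.87 and Nfic at -1.83, between Gnb2 (rank 2) and Rhof (rank 10). In the RM Jund stood at -2.14, Pim3 at -1.91 and Zfp36 at -1.90, beside Ubtf (rank 4) and Bahcc1 (rank 10). Midn ranked 1 in both. Gnb2, Cic, Kdm6b and Rhof ranked in the lowest 10 in the AAR only, and H2-DMa, Ubtf, Nfe2l1, Hnrnpa0 and Bahcc1 in the RM only, so a gene's larger depletion in the biopsy that brought it in is part of the choice. Summed over their regions, the non-member genes closest to the mean of the 10 across the 12 biopsies were Neat1 (a nuclear noncoding RNA), Nr1d1 and Dbp (factors of the circadian clock), Gm46294 and Bad (a promoter of apoptosis). Their root mean square distances were 0.16 to 0.21 on the log2 scale among 8924 genes, and Neat1 was at -1.17 ± 0.23 and -1.27 ± 0.27 (SD, n = 6).

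Each mouse showed the depletion, to different degrees. Over the summed regions of a gene, the log2 ratio of the AAR was lowest at Midn, with -2.52 to -1.61 over the 6 mice (median -1.97), and highest at H2-DMa, with -0.88 to -0.37 (median -0.59). In the RM the ratio of Midn ran from -2.64 to -1.89 (median -2.39) and that of H2-DMa from -0.89 to -0.62 (median -0.71). By mean in the AAR the order was Midn (-1.99 ± 0.33), Hnrnpa0 (-1.77 ± 0.55), Kdm6b (-1.70 ± 0.61), Gnb2 (-1.30 ± 0.47), Rhof (-1.17 ± 0.18), Nfe2l1 (-1.08 ± 0.16), Cic (-0.97 ± 0.37), Bahcc1 (-0.85 ± 0.17), Ubtf (-0.79 ± 0.14) and H2-DMa (-0.56 ± 0.19). In the RM it was Midn (-2.30 ± 0.31), Hnrnpa0 (-2.01 ± 0.45), Kdm6b (-1.41 ± 0.21), Rhof (-1.31 ± 0.27), Nfe2l1 (-1.27 ± 0.27), Gnb2 (-1.12 ± 0.25), Cic (-1.08 ± 0.22), Ubtf (-1.05 ± 0.20), Bahcc1 (-0.85 ± 0.12) and H2-DMa (-0.74 ± 0.11). Each neighbouring pair in either order differed by less than the sum of its SDs. Mouse 17 had the lowest ratio in the AAR for 7 of the 10 genes. The mean over the 10 genes ran there from -1.50 in mouse 17 to -0.98 in mouse 27, and from -1.46 to -1.17 in the RM. Regions other than those of the 10 genes varied between libraries too: the median over 553 other deeply depleted regions ran from -1.12 to -0.79 in the AAR, and the highest value there came from mouse 23, whose libraries were the deepest. The part of depth in the spread between mice was not tested.

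**Figure D4:**
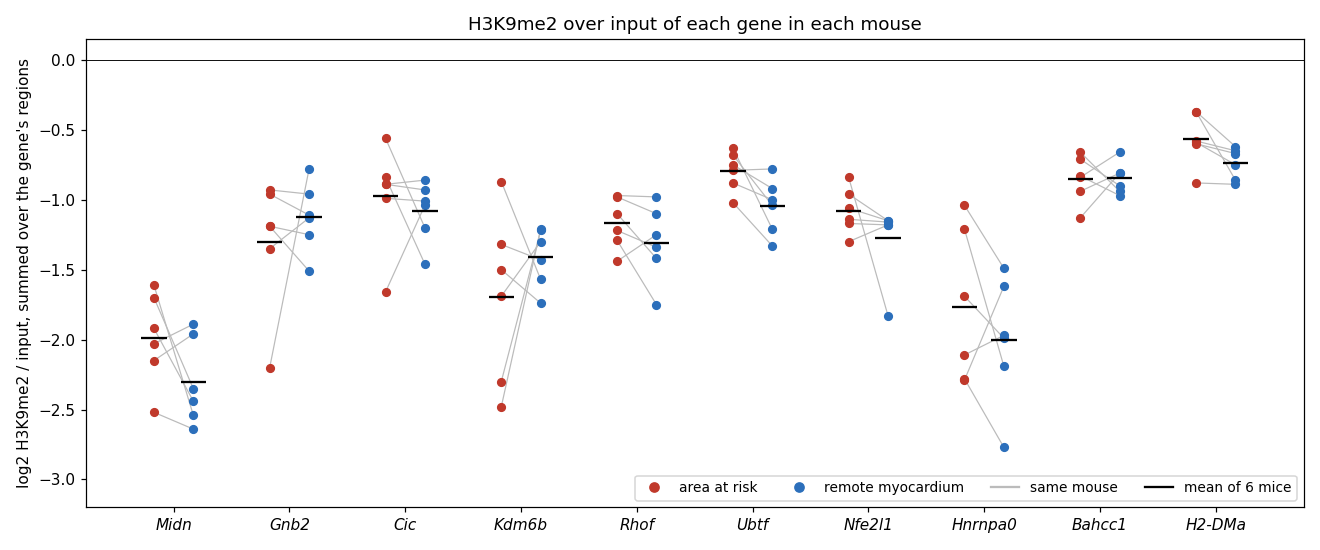
Log2 ratio of H3K9me2 over input summed over the regions of each gene (CPM plus 0.5), 1 point a mouse, in the AAR (red) and RM (blue), with grey lines joining a mouse and black lines at the mean. The ranges of the biopsies overlap at every gene, and H2-DMa is higher in the AAR in 6 of 6 mice.

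The biopsies were not told apart at any of the genes. The input-corrected difference asks whether depletion itself differed between tissue that had been ischemic and tissue that had not, and the fit called 0 of 42445 regions (0.0%) and, for counts summed over each gene, 0 of 17848 genes (0.0%). Over all genes 813 reached an unadjusted p under 0.05 and none of the 10 members did. At H2-DMa the AAR was less depleted in 6 of 6 mice, by 0.18 on the log2 scale (95% interval -0.06 to 0.41, edgeR adjusted p = 1.0). Ubtf was less depleted in the AAR by 0.25 (-0.01 to 0.52; 5 of 6 mice), at an adjusted p from edgeR of 1.0. Bahcc1 showed the tightest interval, 0.00 (-0.21 to 0.21), and Hnrnpa0 the widest, 0.26 (-0.43 to 0.95). For these summed counts a difference of 1 on the log2 scale, in either direction, lay outside the interval of each gene. The intervals do not bound single regions, such as the lowest of H2-DMa at 0.83 (SE 0.36), because a sum also holds the gene's less depleted regions. The genes were chosen for low H3K9me2 in one biopsy or the other, which bears on these differences too. Among the 45 member regions in this fit 5 had an unadjusted edgeR p under 0.05, a larger share than the 1728 (4.07%) of all regions in it. All 5 were less depleted in the AAR: Ubtf at 1.93 and 0.68, H2-DMa at 0.83, Midn at 0.69 and Rhof at 0.58. Over the 45 regions the differences ran from -0.66 to 1.93, with 27 above 0 and 18 below. The largest was at a region of Ubtf with too few reads for the fits of H3K9me2 over input, 102313000 to 102315599, where H3K9me2 held 3.86 ± 1.84 CPM in the AAR and 1.33 ± 1.15 in the RM (SD, n = 6), at an edgeR adjusted p of 1.0. Input there was 5.83 ± 1.53 and 9.20 ± 1.66 CPM, a log2 difference of -0.63 that makes up part of the 1.93. The lowest region of H2-DMa, shared with Brd2, differed by 0.83 (SE 0.36) and that of Midn over its start sites by 0.69 (SE 0.31), both with an edgeR adjusted p of 1.0, and both were chosen for their values in the RM. Input at these regions had log2 differences of -0.31 and -0.27, which make up part of the 0.83 and the 0.69.

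**Figure D5:**
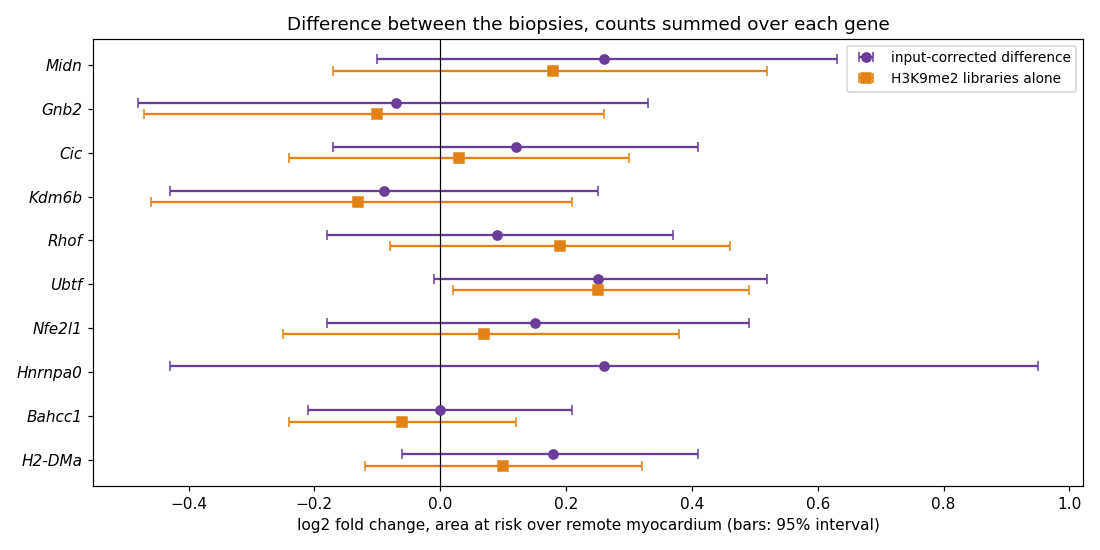
Log2 fold change of the AAR over the RM for counts summed over each gene, after correction by input (purple circles) and between the H3K9me2 libraries alone (orange squares), with 95% intervals. The input-corrected intervals include 0 at all 10 genes, while that of Ubtf between H3K9me2 libraries alone, 0.02 to 0.49, does not. Hnrnpa0 has no orange square because its counts did not pass the filter.

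Without input, the H3K9me2 libraries of both biopsies gave 0 calls among 31526 regions (0.0%) with edgeR, 1272 of them at an unadjusted p under 0.05, and 0 with DESeq2, which had 454. Summed over genes, 0 of 15756 were called (0.0%), 583 at an unadjusted p under 0.05. Only 18 of the 60 member regions had enough H3K9me2 reads for this test, and among the lowest regions only those of Rhof (AAR) and Bahcc1 did, because a depleted region leaves few reads. The region of Rhof near Tmem120b was the 1 with an unadjusted p under 0.05: it held 21.0 ± 5.14 CPM in the AAR and 12.2 ± 5.35 in the RM (SD, n = 6), a log2 fold change of 0.77 (SE 0.25) with an edgeR adjusted p of 0.999. For summed counts, Ubtf was at 84.8 ± 10.1 CPM and 71.9 ± 7.69, a log2 fold change of 0.25 (SE 0.12, 95% interval 0.02 to 0.49). Its unadjusted p was 0.0389 and its edgeR adjusted p was 1.0. The inputs differed in 0 of 42603 regions (0.0%) with edgeR, 1157 at an unadjusted p under 0.05, and in 0 with DESeq2, which had 626. Input differences of the 45 member regions ran from -0.63 to 0.35, with -0.31 (SE 0.11) at the lowest H2-DMa region and -0.27 (SE 0.09) at the Midn region over its start sites, both at an edgeR adjusted p of 1.0. Of these 45 regions 4 had an unadjusted edgeR p under 0.05 for input, a larger share than the 2.72% of all regions. Regions and genes near the members share reads with them, so their tests are not independent.

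Relatives and partners of the 10 genes were counted in lists chosen with earlier results of these data known, and ranged from none lower among the G protein beta subunits in the AAR to 5 of 7 lower among the BAH domain proteins. A gene counts as lower or higher when regions were called in that direction alone, and the median is over the regions of the list, beside 0.01 over all regions. By the same count 29.2% of all 17497 measured genes were lower and 13.7% higher in the AAR, and 37.4% of 17474 lower and 21.7% higher in the RM. Genes with more regions can gain a call more easily, and the lists were not matched for this. Of the 4 other G protein beta subunits none was lower and 1 was higher in the AAR, and 2 were lower and 2 higher in the RM (median -0.06 and 0.12), with lowest regions at Gnb5 (-0.33) and Gnb1 (-0.65). Among 8 CNC factors and small Maf partners, 5 were lower in each biopsy and 0 and 1 higher (median -0.34 and -0.59), with Mafk at -1.23 and -1.32 and Nfe2l2 (NRF2) at -1.21 and -1.28. Among 7 measured BAH domain proteins, 5 were lower in each biopsy and none higher (median -0.23 and -0.29), with Baz2a at -1.66 and -1.48 and Mta1 at -1.29 and -1.27. Of 7 measured partners and targets of capicua, 4 were lower in each biopsy and 1 and 3 had calls in both directions (median 0.01 and 0.23), among them Dusp6 at -1.34 and -1.24. For the 7 measured genes of the RNA polymerase I machinery, 1 and 2 were lower and 0 and 2 higher (median -0.10 and -0.07), with Polr1c lowest at -0.93 and -0.95. Of 2 measured A/B-type hnRNPs, Hnrnpab was lower (-0.96 and -1.19) and Hnrnpa3 was at -0.16 and -0.15. Of 8 measured MHC class II genes other than H2-DMa, 0 and 1 were lower and 1 and 4 higher (median -0.07 and 0.09), among them Cd74, the invariant chain, at 0.46 and 0.57. The KDM6 relatives Kdm6a and Uty had no tested region.

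Markers of the cells in a heart biopsy were sparse in the listed regions. Of 6 cardiomyocyte genes, 3 were measured and none was called (median 0.05 and 0.11), including Myh6 and Ttn, so chromatin counts gave no check of the labelled tissue. Of 7 leukocyte genes 3 were measured, with Cd68 lower (-0.69 and -0.79) and Itgam higher (0.71 and 0.88). Csf1r, also measured, was not called in the AAR (0.15 to 0.27) and was higher in the RM (0.11 to 0.58). Of 8 endothelial and fibroblast genes 6 were measured, 2 and 3 of them lower and 1 and 0 higher (median -0.23 and -0.27). The part of cell composition in the values of the 10 genes was not tested.

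In the authors' deposited tables, 35 member regions in the AAR and 36 in the RM had an FDR under 0.05, all with input above H3K9me2, and none in the tables between biopsies. The authors' deposited table gives the lowest Midn region of the RM a log2 fold change of 2.65 for input over H3K9me2.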

How the data were processed

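H3K9me2 and input ChIP-seq libraries of 6 mice in 2 biopsies gave 24 libraries. Reads were aligned to mm10 with Bowtie2 2.2.2 and regions found with SICER 1.1, per the submitters' processing notes. The deposited count of reads per region is raw and whole-numbered, per the file headers; the deposited tables also give log2 fold changes and p-values from edgeR, with the sign turned here. The library totals over listed regions were 416683 to 1196368 reads for H3K9me2 in the area at risk, 443261 to 981763 in the remote myocardium, and 1286383 to 2478668 and 1405503 to 1770520 for input.

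Counts were tested with edgeR 4.0.16 in R 4.3.3 (quasi-likelihood, TMM, filterByExpr, Benjamini-Hochberg over all tested regions, FDR 0.05), and with DESeq2 1.42.0 as an alternative. CPM are counts scaled by TMM to library size over the listed regions, so a change alike in all regions is not visible. Ratios per mouse used CPM plus 0.5. Genes take every region overlapping them or within 2 kb, and all 10 are named, with the genes that share their regions or end a run. Runs were followed to 100 kb from the gene. Fully covered regions hold no reads and partly covered ones understate. The script was tested on simulated data.

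The members and lists were chosen with earlier results of these data known. The result of 1 gene list is not reported here. The 4 libraries of a mouse share the animal, which pairs them; deviations of same-mouse libraries correlated at -0.16 to 0.06 between the H3K9me2 groups and at -0.08 to 0.17 between the others. The fit without the mouse was used, with the mouse as a block as an alternative. Other alternatives were normalization, filter, threshold and leaving out each mouse. Replicates differed by 1.02 to 2.03 chi-square units per region.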

Additional observations from a re-analysis of the deposited data

Results flagged for a closer look

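In groups of 6 libraries, 7 of 68 held a value far from the nearest other for its group's range by Dixon's test, where chance gives about 1 in 20. For ratios summed over a gene, these were mouse 19 at Gnb2 in the area at risk, with a log2 ratio of -2.2 (gap 0.669 of the range), and mouse 22 at Nfe2l1 in the remote myocardium, with -1.83 (gap 0.956). For H3K9me2 in the lowest region of the area at risk, mouse 22 had 0.0 CPM at Cic (gap 0.757). Mouse 19 had 11.1 CPM at Rhof (gap 0.732) and 16.6 CPM at Nfe2l1 (gap 0.636). Mouse 23 had 28.1 CPM at Bahcc1 (gap 0.737). In the remote myocardium mouse 23 had 2.95 CPM at Hnrnpa0 (gap 0.709).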

How the results depend on the processing

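Of 838 values under alternatives, 15 changed sign, and 19 single-gene runs and 2 median runs moved. With the mouse as a block, 36 member regions in each biopsy were called lower than input, against 34 and 35 without it; DESeq2 called 29 and 34, and an FDR of 0.01 left 28 and 33. Leaving out a mouse gave 28 to 34 and 33 to 36. The comparisons between biopsies called 0 member regions or genes under each alternative run, the block included. The median run was 26.8 kb and 29.3 kb with the block, 21.3 to 30.5 kb and 25.5 to 29.3 kb without 1 mouse, and 6.4 kb and 10.1 kb at a threshold of -1, which admits fewer regions. Between biopsies, some lowest regions changed sign, none of them called. Leaving out a mouse gave -0.14 to 0.25 at Rhof and -0.18 to 0.43 at Bahcc1 for H3K9me2. For input it gave -0.02 to 0.20 at Midn, -0.09 to 0.12 at Gnb2, -0.25 to 0.03 at Cic and -0.09 to 0.06 at Hnrnpa0, and the block gave -0.02 at Gnb2. For the input-corrected difference it gave -0.75 to 0.04 at Kdm6b, -0.27 to 0.06 at Rhof and -0.03 to 0.44 at Bahcc1. The cause was not tested. Depth limits these regions: the lowest regions of the genes held 0 to 34 H3K9me2 reads a library.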
